A study of Homo sapiens with 17 samples.

Results

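The microRNA genes MIR193B and MIR365A on chromosome 16 and their paralogs MIR193A and MIR365B on chromosome 17 are described here in K562 cells carrying an inducible short hairpin RNA against Drosha. These 4 hairpins hold 8 arms. An arm is called measured where at least 2 of its alignments had a ratio above 0 in all 8 deposited tables, which 6 arms did, with 17 such alignments, while the whole series had 11342 of the same lengths. The members were taken by position on the build hg19, as plus-strand alignments of 18 to 26 nt inside chr16:14397824-14397906 (MIR193B), chr16:14403142-14403228 (MIR365A), chr17:29887015-29887102 (MIR193A) and chr17:29902430-29902540 (MIR365B). They were chosen by measured values, the low ratios of the chromosome 16 pair, so every ratio of an arm below is a description and carries no test.

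K562 is a human erythroleukemia cell line. Every library came from cells of the genotype Drosha_shRNA_KD, so the water-treated cells carry the hairpin construct too, and no line without it was used here. The groups were cells kept in 1 µg/mL doxycycline (Dox) for 3 d (n = 2), 13 d (n = 3) and 31 d (n = 3), against cells grown in parallel in water for the same times (n = 2, 3 and 3). The libraries were cut from a gel at 20 to 40 nt. The authors deposited 8 tables, 1 for each Dox library with the water library of its day and number, and each table gives every alignment a ratio of 1 library over the other. No source used here says which of them is divided by which, so they are called the numerator and the denominator library, no Dox direction is attached, and it is assumed rather than known that the order is the same in all tables. A ratio of 0 means that nothing was listed for the numerator, and depth per library was not used here, so the counting error behind a ratio is unknown. In 1 measurement the tables go the same way: the alignments with their 5′ end at position 31511242 of the plus strand of chromosome 5 had a log2 ratio of 7.31 to 12.2 in all 8, the highest of any group of alignments in 5 tables. The reference used here is of another build, so no gene was assigned to that position, and the Drosha transcript itself was not analysed here.

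In human cells the nuclear enzyme Drosha, with its partner DGCR8, cuts the primary transcript of a microRNA gene at the base of a hairpin, and Dicer then cuts off the loop, which leaves a duplex of a 5p and a 3p strand. One strand is usually kept in an Argonaute protein and the other is usually degraded. Bases 2 to 8 of the kept strand, the seed, pair with target messenger RNAs. Hairpins that lie close together are often cut from 1 primary transcript, and the miR-193 and miR-365 families are neighbours at both of their human loci.

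The mature sequences show which arms can be told apart by sequence and which cannot. RefSeq (GRCh38.p14) held all 4 hairpins and all 8 arms, written here 5′ to 3′ with the seed in capitals. The 3p arms of miR-193 share the seed ACUGGCC, which no other of 2545 human mature entries has.
miR-193b-3p: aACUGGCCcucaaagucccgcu
miR-193a-3p: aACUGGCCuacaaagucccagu

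The 3p arm of miR-365 is 1 sequence at both loci, identical in 22 of 22 bases, and its seed AAUGCCC is found in no other entry. A read of it cannot be assigned to MIR365A or to MIR365B by its sequence.
miR-365a-3p and miR-365b-3p: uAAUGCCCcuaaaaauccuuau

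The 5p arms differ between the loci. Those of miR-365 share the seed GGGACUU, and those of miR-193 have a seed each.
miR-365a-5p: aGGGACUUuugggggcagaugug
miR-365b-5p: aGGGACUUucaggggcagcugu
miR-193b-5p: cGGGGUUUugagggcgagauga
miR-193a-5p: uGGGUCUUugcgggcgagauga

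Counted from 1 at the 5′ end, with the chromosome 16 base first, the miR-193 3p arms differ by C9U, U10A, G20A and C21G. The miR-193 5p arms differ by C1U, G5U, U6C and A11C. The miR-365 5p arms differ by U10C, G11A and A19C over the 22 bases compared. The hairpins of the chromosome 16 pair are shown with both arms in capitals, since all 4 of their arms had ratios above 0 in every table. In GRCh38.p14 they lie on the plus strand at chr16:14303967-14304049 (MIR193B, 83 nt) and chr16:14309285-14309371 (MIR365A, 87 nt).
MIR193B hairpin: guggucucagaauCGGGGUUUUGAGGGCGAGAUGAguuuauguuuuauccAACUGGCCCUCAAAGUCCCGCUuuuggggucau
MIR365A hairpin: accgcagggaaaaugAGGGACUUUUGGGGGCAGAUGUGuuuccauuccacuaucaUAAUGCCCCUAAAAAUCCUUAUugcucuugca

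In the annotations of GRCh38, MIR193B and MIR365A both lie in introns of MIR193BHG, a long non-coding RNA of the same strand: none of the 4 GENCODE v29 transcripts that span them has an exon over either hairpin. MIR365B overlaps an exon of the only GENCODE transcript spanning it, the long non-coding RNA AC003101.1, and RefSeq names its host MIR365BHG. GENCODE lists no host for MIR193A. Folded with ViennaRNA, each of the 4 hairpins formed a structure with 1 loop, at a minimum free energy of -39.3 kcal/mol for MIR193B, -34.5 for MIR365A, -50.2 for MIR193A and -39.3 for MIR365B.

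The alignments above 0 in all tables began where the mature sequences begin, and the 4 windows have the lengths of the RefSeq hairpins. All 17 alignments of the measured arms started at the base of their hairpin at which RefSeq starts the arm, so that each measured arm was 1 set of alignments with a common 5′ end and varied at the 3′ end alone. MIR365B 3p had 4 such alignments, of 20, 21, 22 and 23 nt. MIR193B 3p and MIR365A 3p had 3 each, from 21 to 23 nt, and MIR365A 5p had 3, from 22 to 24 nt. MIR193B 5p and MIR193A 5p had the 21 and 22 nt forms. On hg19 the form with the RefSeq ends lies at chr16:14397837-14397858 for MIR193B 5p, chr16:14397874-14397895 for MIR193B 3p, chr16:14403157-14403179 for MIR365A 5p and chr16:14403197-14403218 for MIR365A 3p. On chromosome 17 it lies at chr17:29887035-29887056 for MIR193A 5p and chr17:29902497-29902518 for MIR365B 3p. MIR193A 3p and MIR365B 5p had no alignment above 0 in all tables and have no mean ratio.

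In every table of 13 d and 31 d, all 6 measured arms were lower in the numerator than in the denominator library. The value of an arm is the median log2 ratio of its alignments above 0 in all tables. Averaged over the 4 arms of the chromosome 16 pair it was 1.84 ± 0.79 after 3 days (SD, n = 2 tables), -3.55 ± 1.22 after 13 (n = 3) and -3.63 ± 1.52 after 31 (n = 3). The 2 measured arms of the chromosome 17 pair averaged 2.86 ± 1.35 in the 3 d tables, -2.30 ± 1.41 after 13 days and -2.26 ± 0.83 after 31 days. One of these 2 arms is the 3p strand of miR-365, which has the same sequence at both loci; without it the values of the chromosome 17 pair are those of MIR193A 5p alone, with means of 3.07, -1.44 and -0.92. The values of both pairs were above 0 in both tables of 3 d and below 0 in the 6 later ones.

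MIR365A 5p, the arm of miR-365 with a sequence of its own (miR-365a-5p above), had the lowest mean log2 ratio of the 6 arms at 13 d and at 31 d, though not the lowest in replicates 1 and 3 of 31 d or on day 3. Its log2 ratios were 2.16 and 1.79 in replicates 1 and 3 of 3 d, then -4.64, -3.68 and -6.24 in the 3 replicates of 13 d, and -2.13, -7.23 and -3.98 in those of 31 d. The day means were 1.97 ± 0.27, -4.85 ± 1.29 and -4.45 ± 2.58, and as a fold the numerator was 28.9-fold lower in the mean of 13 d and 21.8-fold lower in that of 31 d. The replicates were far apart: the 13 d mean was -4.16 without replicate 3 and -5.44 without replicate 2, and the 31 d mean was -3.06 without replicate 2 and -5.61 without replicate 1. In the authors' deposited tables, its 23 nt form with the RefSeq ends had ratios of 4.47 and 10.7 for 3 d, 0.0313, 0.0130 and 0.00520 for 13 d, and 0.274, 0.0023 and 0.0678 for 31 d. The earlier tables are thus all above 1 and the later ones all below it.

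MIR193B 3p, which carries the seed of the miR-193 family's 3p strands, had log2 ratios of -0.74 and 1.41 in the 3 d tables. They were -2.38, -2.20 and -5.12 in those of 13 d, and -1.20, -4.92 and -3.65 in those of 31 d. The 2 tables of 3 d lie on opposite sides of 0, and their mean of 0.33 ± 1.52 is smaller than its spread. The later means were -3.23 ± 1.64 and -3.26 ± 1.89. Its 22 nt form had deposited ratios of 0.906 and 2.65, 0.193, 0.218 and 0.0927, and 0.435, 0.0578 and 0.0798, in the same order of the authors' deposited tables.

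MIR193B 5p, the partner strand in the same hairpin, was more even between replicates. Its log2 ratios were 1.72 and 2.66 after 3 days, -2.71, -2.26 and -3.52 after 13, and -2.54, -3.80 and -2.81 after 31. The means were 2.19 ± 0.66, -2.83 ± 0.64 and -3.05 ± 0.67. The 5p minus the 3p log2 ratio of MIR193B was above 0 in 5 of 8 tables and ranged from -1.34 to 2.46, so neither strand was the lower one throughout. In MIR365A the same difference ranged from -2.42 to 0.61 and was below 0 in 6 of 8 tables.

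The 3p strand of miR-365, whose sequence is common to both loci, had log2 ratios at MIR365A of 2.00 and 3.74 on day 3, -2.37, -2.56 and -4.90 on day 13, and -2.74, -4.81 and -3.72 on day 31. At MIR365B they were 1.39 and 3.90 on day 3, -2.05, -1.98 and -5.48 on day 13, and -2.53, -4.08 and -4.18 on day 31. The day means were 2.87 ± 1.23, -3.28 ± 1.41 and -3.76 ± 1.04 at MIR365A, and 2.65 ± 1.77, -3.17 ± 2.00 and -3.60 ± 0.93 at MIR365B. Since the sequence is the same, these are not separate observations. For the 3 lengths measured at both loci, the log2 ratio at MIR365A minus that at MIR365B had a median of 0.25 over 24 values and a range of -0.73 to 1.29, and its size was under 1 in 22 of the 24. How the aligner placed reads with several best positions was not recorded in the labels or tables, and the locus of origin of this strand cannot be told apart here.

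**Figure D1:**
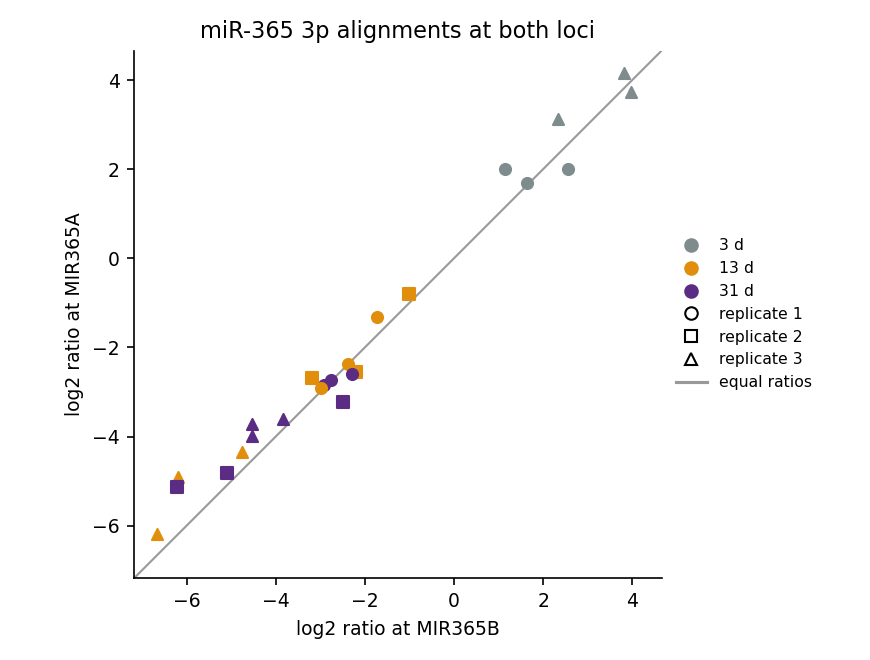
Log2 ratio of single miR-365 3p alignments of 21, 22 and 23 nt at MIR365A (y axis) and at MIR365B (x axis), 1 point per length and table, coloured by day and shaped by replicate, with a grey line at equal ratios. The 24 points lie along the line, with 22 of them less than 1 from it.

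The 5p strands of miR-365 can be told apart, and the tables list them unequally. MIR365A 5p had 24 different alignments of 18 to 26 nt over the 8 tables and 9 to 16 in a single table. MIR365B 5p had 2, the 22 and 23 nt forms at the RefSeq start. It was not listed in either table of 3 d or in replicates 1 and 2 of 13 d, and each of its 4 listings, in replicate 3 of 13 d and in the 3 replicates of 31 d, had a ratio of 0 in the authors' deposited tables.

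MIR193A 5p, the only measured arm of miR-193a, had ratios nearer to 0 than the other arms at 13 d and 31 d. Its log2 ratios were 2.42 and 3.72 in the 3 d tables, -0.44, -1.55 and -2.33 in the 13 d tables, and -0.09, -1.60 and -1.08 in the 31 d tables. The means were 3.07 ± 0.92, -1.44 ± 0.95 and -0.92 ± 0.77. It was the arm with the highest mean on all 3 days. Its 22 nt form had a deposited ratio of 1.80 in replicate 1 of 13 d and 0.169 and 0.244 in the other replicates of that day in the authors' deposited tables, so the replicates disagree in direction for this form. No test of the difference between this arm and the others was made.

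MIR193A 3p, which shares its seed with miR-193b-3p, was listed most often as a form of 18 nt, in 8 of its 17 listings. Over all tables it had 17 listings of 5 different alignments, all starting at the RefSeq base, of which 14 had a ratio of 0. An alignment of 18 nt at chr17:29887069-29887086 was listed in all 8 authors' deposited tables, with ratios of 0.507 in replicate 3 of 3 d, 0.298 in replicate 3 of 13 d and 0.0937 in replicate 1 of 31 d, and 0 in the other 5 tables. The 22 nt form with the RefSeq ends was listed in 2 tables, both times at 0. These values are given singly, and no mean was formed.

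**Figure D2:**
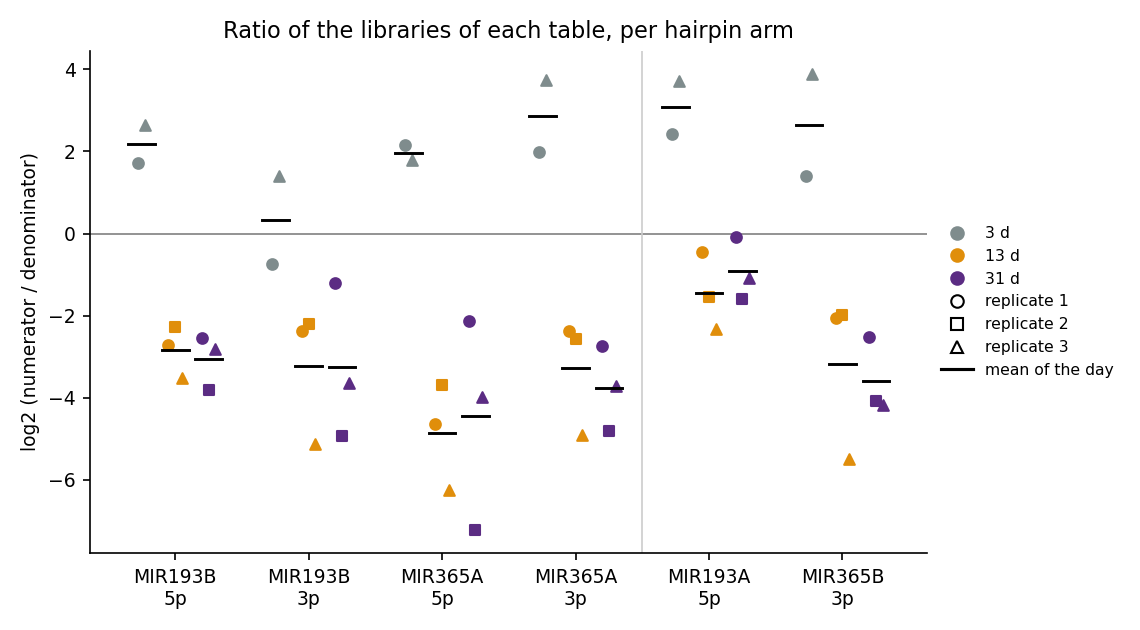
Log2 ratio of the numerator over the denominator library (y axis) of each measured arm (x axis; the grey line parts chromosome 16 from chromosome 17), 1 point per table, coloured by day and shaped by replicate, with black bars for the mean of a day. At 3 d 11 of 12 points lie above 0, and at 13 d and 31 d every point of the 6 arms lies below 0.

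The mean ratios rest on alignments above 0, and many listings were at 0. For MIR365A 5p, 7 of 20 listings had a ratio of 0 at 3 d, 27 of 37 at 13 d and 26 of 46 at 31 d. For MIR193B 3p the numbers were 3 of 26, 21 of 43 and 19 of 46, and for MIR193B 5p 4 of 11, 13 of 20 and 10 of 21. For the 3p strand of miR-365 they were 1 of 9, 4 of 17 and 4 of 18 at MIR365A, and 0 of 9, 6 of 20 and 6 of 19 at MIR365B. For MIR193A 5p they were 1 of 8, 4 of 13 and 5 of 17. In all 6 measured arms the share at 0 was lower at 3 d than at 13 d. Whole tables had 79.7% to 94.0% of their 18 to 26 nt alignments at 0, with the highest value in replicate 1 of 3 d. The measured arms were taken for having alignments above 0, so no comparison with these shares is drawn.

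Low ratios were common among other small RNAs too, which sets the scale for the members. For this, alignments anywhere in the genome were grouped by 5′ end and valued as an arm is, with the same minimum of 2 that are never at 0, which gave 2031 groups. Of these, 529 had another group on the same strand with its 5′ end 30 to 48 nt away and are called two-arm groups, the 4 arms of the chromosome 16 pair among them. At 13 d, 23.2% of all groups and 27.4% of two-arm groups had a log2 ratio below -1 in every table, and 12.9% and 7.18% had one above 1. Of the arms, 5 of 6 were below -1 in every table, all but MIR193A 5p, and none was above 1. At 31 d, 22.0% of all groups and 22.3% of two-arm groups were below -1, and 7.73% and 4.54% above 1. The same 5 of 6 arms were below -1 and none was above 1. At 3 d, 9.45% of all groups and 6.43% of two-arm groups were below -1 in both tables, and no arm was. Above 1 were 36.5% of all groups and 31.8% of two-arm groups, and 5 of 6 arms, all but MIR193B 3p. MIR365A 3p and MIR365B 3p, the same sequence at both loci, are counted here as separate arms. Since the rule used these ratios, nothing is read from the counts of arms.

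The places of the arms among the 529 two-arm groups are a description too, since the rule used these ratios, and nothing is read from them. Groups at 0 in any table are not among the 529, so lower arms may be missing from this order. By the mean over the tables of a day, 1 of the 529, the arm itself, was at or below MIR365A 5p at 13 d, and 3 at 31 d. MIR365A 3p had 30 two-arm groups at or below it after 13 days and 11 after 31. For MIR193B 3p the numbers were 31 and 26, and for MIR193B 5p 59 and 33. The chromosome 17 arms, set against the same groups, had 34 and 17 (MIR365B 3p) and 163 and 261 (MIR193A 5p) at or below them. On day 3 the order was another: MIR193A 5p had 520 of the 529 at or below it, MIR365A 3p 515, MIR365B 3p 502, MIR193B 5p 453, MIR365A 5p 425 and MIR193B 3p 148. This order rests on the assumed direction of the 3 d tables. Were they turned, the groups at or above each arm would count instead, which number 9 for MIR193A 5p, 15 for MIR365A 3p, 27 for MIR365B 3p, 77 for MIR193B 5p, 105 for MIR365A 5p and 382 for MIR193B 3p.

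**Figure D3:**
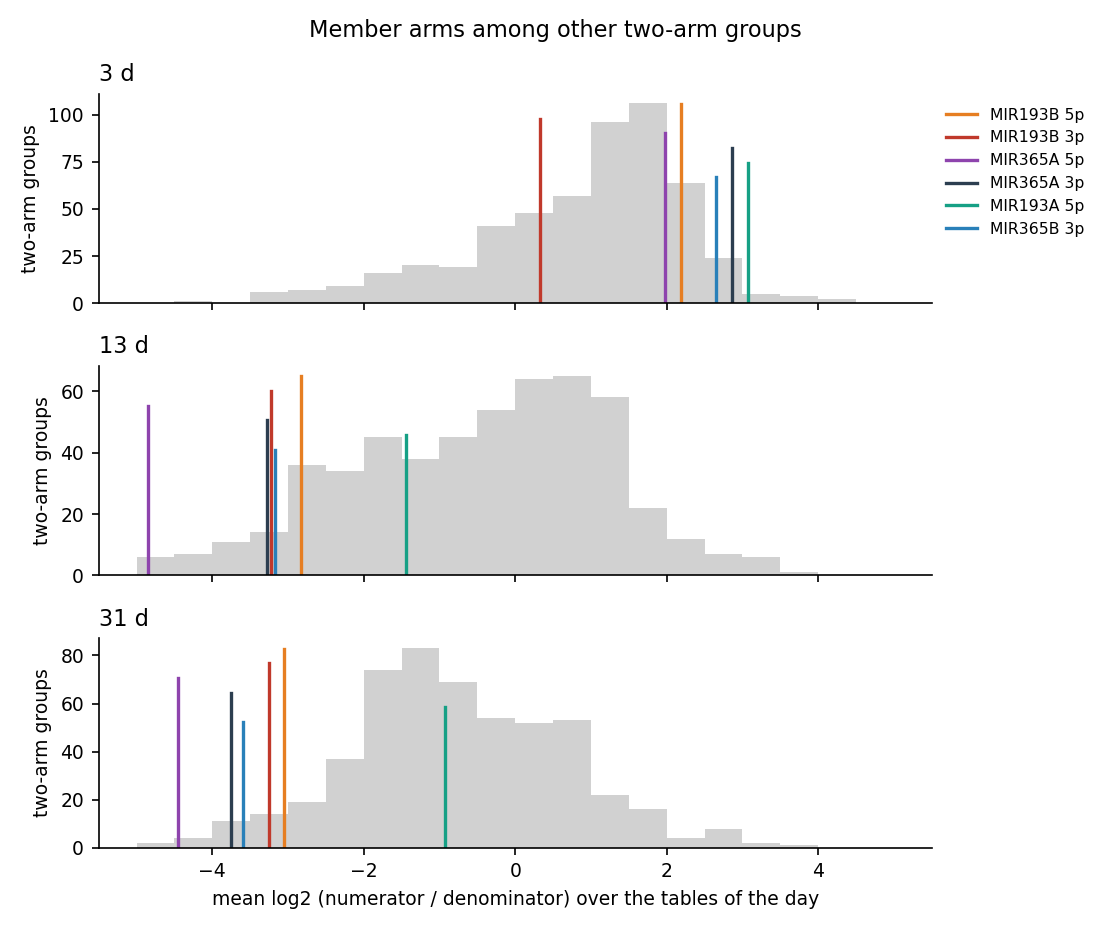
Histograms (grey) of the mean log2 ratio over the tables of 3 d, 13 d and 31 d (x axis) for two-arm groups outside the 4 hairpins (y axis: number of groups), with a coloured line at each measured arm; line height has no meaning. At 13 d and 31 d 5 arms lie in the lower part, with MIR365A 5p the lowest of the arms. MIR193A 5p lies below the median of the groups at 13 d and near it at 31 d. At 3 d all but MIR193B 3p lie in the upper part.

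The tables were shifted against each other. The median log2 ratio of the 2031 groups was 0.75 and 1.63 for 3 d, 0.61, -0.23 and -1.07 for 13 d, and -0.07, -1.05 and -0.72 for 31 d, with replicates in rising number. Relative to these medians, the chromosome 16 pair averaged 0.65 ± 0.17 on day 3, -3.32 ± 0.77 on day 13 and -3.02 ± 1.04 on day 31. The chromosome 17 pair averaged 1.67 ± 0.73, -2.07 ± 0.68 and -1.65 ± 0.36. MIR365A 5p averaged -4.62 ± 1.02 and -3.84 ± 2.12 on the later days. MIR193A 5p averaged -1.21 ± 0.14 and -0.31 ± 0.27, so that on day 31 it was near the median of all groups. MIR193B 3p at 3 d changed sides under this scaling, to -0.86 ± 0.90.

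Whether the numerator and denominator libraries differed in the 3′ ends of an arm was tested within each arm, where the level of the arm cancels. The measures were the slope of the log2 ratio on alignment length, and the log2 ratio at the RefSeq length minus that of the form 1 nt shorter, each over the 8 tables with the exact two-sided sign-flip permutation test and Benjamini-Hochberg adjustment over the 6 measured arms. The smallest p that 8 tables allow is 0.007812, or 0.0469 when adjusted for 1 arm alone at that limit, and no arm passed at 0.05. The lowest p was that of MIR365A 5p, whose slope was below 0 in 7 of 8 tables and averaged -0.57 ± 0.64 log2 per nt (exact p = 0.0469, adjusted p = 0.266). In the other arms the mean slope lay between -0.61 for MIR193B 5p and 0.17 for MIR193A 5p, with adjusted p-values of 0.266 to 0.742 by the same exact test. The log2 ratio at the RefSeq length minus that 1 nt shorter averaged -1.23 ± 1.97 for MIR365A 5p and was below 0 in 5 of 8 tables (exact p = 0.133, adjusted p = 0.297). For MIR365A 3p it averaged -0.64 ± 1.11, for MIR365B 3p -0.56 ± 1.51 and for MIR193B 3p 0.28 ± 1.14, with adjusted p-values of 0.297, 0.504 and 0.581 by that exact test. In each of these arms the spread between tables was larger than the mean. By the adjusted p-values, a common difference of the 3′ ends was not detected with 8 tables.

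**Figure D4:**
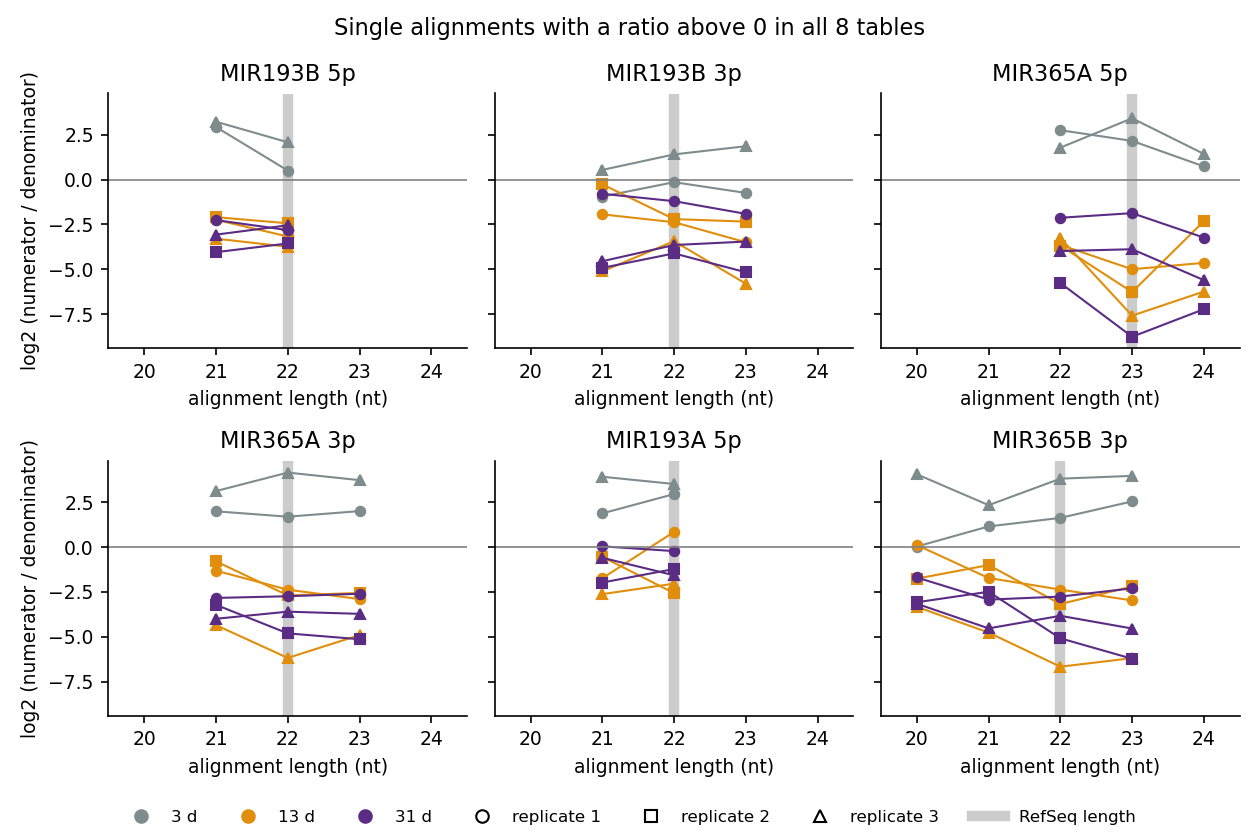
Log2 ratio of the numerator over the denominator library (y axis) of each alignment with a ratio above 0 in all 8 tables, by its length in nt (x axis), with 1 panel per measured arm and 1 line per table, coloured by day and shaped by replicate; the grey band marks the RefSeq length. The lines of 3 d lie mostly above 0 and those of the later days mostly below it, and within an arm they slope in different directions.

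Single forms within an arm could lie far apart in the same table. For MIR365A 5p in replicate 3 of 13 d, the log2 ratio at 23 nt minus that at 22 nt was -4.33, while in replicate 3 of 3 d it was 1.64. For MIR193A 5p, the log2 ratio at 22 nt minus that at 21 nt was 2.59 in replicate 1 of 13 d and -2.03 in replicate 2.

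Little was listed elsewhere in the clusters. On the plus strand between MIR193B and MIR365A, a stretch of 5235 nt, the tables list 2 alignments of 18 to 26 nt, and between MIR193A and MIR365B, over 15327 nt, 7, all with a ratio of 0. On the minus strand of the second stretch 30 are listed, with 4 listings above 0. On the minus strand inside the 4 hairpins 1 alignment is listed, in 1 table and at 0. Alignments of 27 nt or longer numbered 1 in MIR193B, 2 in MIR365A, 3 in MIR193A and 0 in MIR365B, and those of MIR193A alone had a ratio above 0 in any table.

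The long alignment of MIR193A listed in most tables was one of 34 nt at chr17:29887057-29887090. Laid on the RefSeq hairpin by its distance from the hairpin's start, it runs from the base after the annotated 5p arm, through the loop, to the last base of the annotated 3p arm. The sequence is shown with the 3p arm in capitals.
MIR193A, 34 nt: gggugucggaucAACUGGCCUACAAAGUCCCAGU

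Its ratio in the authors' deposited tables was 53.5 in replicate 1 of 3 d, 0.0208 in replicate 1 of 13 d and 0.127 in replicate 2 of 13 d. It is not listed in the other 5 tables. In those 3 tables it stood on the same side of 1 as the median of MIR193A 5p, and the 5 tables without it do not show whether a numerator library held it.

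Among 525 two-arm groups outside the hairpins, 3 were most like the chromosome 16 pair by Pearson r over the 8 centred log2 ratios. On hg19 their 5′ ends lie on the plus strand at position 28444147 of chromosome 17 (r = 0.963), position 110409908 of chromosome 4 (r = 0.961) and position 92003051 of chromosome 13 (r = 0.960). The 8 points share their libraries and the shift between days, and the values describe these tables. For the mean of the chromosome 16 arms the centred values were 0.53 and 0.77 in the 3 d tables, -3.64, -2.44 and -3.87 in those of 13 d, and -2.08, -4.14 and -2.82 in those of 31 d. For the chromosome 17 group they were 0.37 and 0.93, -2.46, -1.66 and -3.43, and -1.62, -3.37 and -1.19. In both, replicate 2 is nearest to 0 among the 13 d tables and lowest among the 31 d tables.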

How the data were processed

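Small RNA libraries of K562 cells were described from 8 tables of ratios that the authors deposited. Reads were aligned with Bowtie2 2.2.9 to hg19 (GRCh37), per the submitters' processing notes. The tables have no header. The deposited ratio is the authors' quotient of a pair of scaled values in the same row. The other 32 value columns carry no library name and enter no result, so no depth, read share or counting interval is given. The read minimum, mean read length and most-read alignment planned for these columns were replaced, after the data were seen, by ratios above 0 in all 8 tables, the slope of the ratio on length, and the RefSeq ends. Labels name 1 table for the Dox and water library of a day and number, and say that replicates are biological. Of the 17 samples, the untreated one was not used here.

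Alignments of 18 to 26 nt wholly inside a hairpin were split into arms at its middle. An arm's value is the median log2 ratio of its alignments above 0 in all tables, and alignments with the same 5′ end elsewhere were grouped likewise; a group absent from 1 numerator is thus left out of the background. Python 3.11.15, NumPy 2.4.6, pandas 2.3.3, SciPy 1.17.1 and ViennaRNA 2.7.2 were used, and the steps were checked on simulated data. Positions are 1-based, and none were converted between builds: RefSeq sequences were matched by symbol. No erythroid marker could be matched to hg19. All 4 members were named with both arms, and the 3 groups most like them by correlation, without the planned minimum of reads. Members and lists were chosen with earlier results of these data known. Alternatives were centring, lengths, ways of combining alignments and each table left out; the RefSeq ends alone, a minimum of 3 alignments and both miR-365 loci together were added after seeing the data.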

Additional observations from a re-analysis of the deposited data

Results flagged for a closer look

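In 5 arms the log2 ratio was above 0 in both tables of 3 d and below 0 in every table of both later days. The 3p strand of miR-365, the same sequence at both loci, is counted at MIR365A and at MIR365B here. The differences between days were not tested. For MIR193B 5p, the mean at 13 d minus that at 3 d was -5.02 and the mean at 31 d minus that at 3 d was -5.24. The same differences were -6.83 and -6.42 for MIR365A 5p, -6.15 and -6.62 for MIR365A 3p, -4.51 and -4.00 for MIR193A 5p, and -5.81 and -6.24 for MIR365B 3p. The median of all groups differed between days too, at 0.75 and 1.63 in the 3 d tables and between -1.07 and 0.61 in the later ones. With each table centred on that median, the differences were smaller and kept their sign: -3.60 and -3.44 for MIR193B 5p, -5.41 and -4.62 for MIR365A 5p, -4.73 and -4.83 for MIR365A 3p, -3.10 and -2.20 for MIR193A 5p, and -4.39 and -4.44 for MIR365B 3p. The alignments at position 31511242 of chromosome 5 had log2 ratios of 11.9 and 12.2 in the 3 d tables and 7.31 to 11.7 in the later ones. The assumption that the 3 d tables divide the libraries in the same order as the later ones was not tested.

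The 34 nt alignment of MIR193A, longer than the lengths taken for the arms, had a deposited ratio of 53.5 in replicate 1 of 3 d, against 0.0208 and 0.127 in the 2 tables of 13 d that list it.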

How the results depend on the processing

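The day means of both pairs kept their direction under every alternative run. Centring each table on the median of all groups moved the chromosome 16 pair at 3 d to 0.65. The chromosome 17 pair at 31 d was -0.92 without miR-365 3p, which leaves MIR193A 5p alone, and -3.60 with a minimum of 3 alignments, which leaves MIR365B 3p alone. With each table left out in turn, the chromosome 16 pair ranged over 1.28 to 2.40 at 3 d, -3.98 to -2.85 at 13 d and -4.37 to -2.85 at 31 d. The chromosome 17 pair ranged over 1.91 to 3.81, -2.84 to -1.50 and -2.74 to -1.97. For single arms, MIR193B 3p at 3 d turned to -0.86 when centred and ranged from -0.74 without replicate 3 to 1.41 without replicate 1. In 8 other cases the value of an arm moved by more than its spread and kept its direction, 7 of them at 3 d; with the RefSeq ends alone MIR365A 5p at 13 d was -6.29. The causes were not tested.

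With a table left out the smallest p is 0.0156, and without the 3 d tables it is 0.0313, so that after adjustment over 6 arms 1 arm alone cannot go below 0.0938 or 0.188. A slope or end difference could thus pass in these settings only if more than 1 arm had a low p, and none passed. That says little about a single arm. The slope of MIR365A 5p was at that limit without replicate 2 of 13 d, with -0.75 log2 per nt (exact p = 0.0156, adjusted p = 0.0938). Its adjusted p ranged up to 0.398 with other tables left out. Without the 3 d tables the slope of MIR365B 3p was at its limit too, with -0.68 ± 0.45 log2 per nt (exact p = 0.0313, adjusted p = 0.188). For MIR193A 5p and MIR193B 5p both measures are the same value. That of MIR193A 5p turned to -0.18 without replicate 1 of 13 d and ranged from -0.18 to 0.48. With a table left out, the slope ranged from -0.77 to -0.35 for MIR193B 5p, -0.31 to -0.07 for MIR193B 3p, -0.75 to -0.44 for MIR365A 5p, -0.38 to -0.20 for MIR365A 3p and -0.57 to -0.28 for MIR365B 3p. All alignments used were 20 to 24 nt, so that limit changed nothing.

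Every value is paired, since the deposited ratio is taken within a pair of libraries: the replicate block is part of each mean and test given, such as -3.55 for the chromosome 16 pair at 13 d. The unpaired fit, scaling by listed totals, the read minimums, the most-read alignment and mean read length were not run, because no value of a single library was used. Depth was not used here, so ratios from few reads were not told from others. Arms and groups at 0 in any table are left out, which removes MIR193A 3p and MIR365B 5p so that ratios of 0 do not enter any mean.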
